A study of Mus musculus with 8 samples.

Results

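The murine miRs from miR-680 to miR-721 were examined in early fracture callus. The array design assigned 42 of its 1079 murine miRs a number in this range, counting both arms of a hairpin where both were printed, and all 42 were kept whatever their signal. The rule of choice used the name alone and no measured value, though earlier results of these data were known when it was made. Of the 42, 10 were detected on all 8 arrays, 8 on at least 1 array but not all, and 24 on none.

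The arrays were hybridised with RNA from callus tissue of mouse femora, collected 7 days after an osteotomy held by a pin and clip. The mice were CD-1, an outbred strain, male and female, aged 9 to 14 weeks. In the Union group (P17 to P20, n = 4) the bone ends were 0.25 mm apart. In the Non-union group (P13 to P16, n = 4) the gap was 1.8 mm and the periosteum was stripped for 2 mm on either side of it, so gap width and loss of periosteum cannot be told apart. The group names are the outcomes that earlier studies found for these operations. On day 7 no animal showed bridging by bone, so the outcome was not observed in these specimens. Each array carried 1 specimen, and no uninjured bone was among the 8 arrays. In bulk tissue, fewer cells of a type and less RNA per cell cannot be told apart either.

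A miR is a short RNA, cut from a hairpin precursor, that pairs with messenger RNAs through its seed, bases 2 to 8 from the 5′ end, and lowers their output. Numbers are assigned in the order in which miRs are registered, so neighbours in number need not share sequence, locus or target. Several of the miRs registered in this range are known in rodents only, and some later proved to be pieces of other RNAs. MiR-720 is a fragment of a transfer RNA, miR-712 comes from the spacer of the ribosomal RNA precursor, and miR-706 resembles the end of the B1 repeat. In bone, miR-705 is known as an inhibitor of osteogenic differentiation of marrow stromal cells.

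RefSeq (GRCm38.p6) held a mature sequence under the array's name for 32 of the 42 miRs. The 11 of these that were detected on at least 1 array are shown because they carry the signals described in the following paragraphs, with the seed in capitals.
miR-680: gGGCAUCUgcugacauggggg
miR-681: cAGCCUCGcuggcaggcagcu
miR-690: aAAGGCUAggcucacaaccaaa
miR-697: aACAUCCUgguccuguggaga
miR-703: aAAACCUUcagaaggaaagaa
miR-705: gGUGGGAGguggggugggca
miR-706: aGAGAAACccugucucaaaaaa
miR-710: cCAAGUCUuggggagaguugag
miR-711: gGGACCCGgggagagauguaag
miR-718: cUUCCGCCcggccgggugucg
miR-721: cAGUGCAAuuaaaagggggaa

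No 2 of these 11 shared a seed. MiR-721 has the seed of the miR-130 and miR-301 family, and the 3 detected members of that family are shown for comparison, again with the seed in capitals.
miR-130a-3p: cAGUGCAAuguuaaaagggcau
miR-130b-3p: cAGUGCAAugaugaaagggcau
miR-301a-3p: cAGUGCAAuaguauugucaaagc

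In the RefSeq annotation most of these loci lay inside protein-coding genes. MiR-690 lay within Fgf12, a member of the fibroblast growth factor family, miR-697 within Sf3a3, which encodes a splicing factor subunit, and miR-705 within Rab11fip5, a membrane trafficking gene. MiR-706 lay within the kinase gene Wnk1, miR-709 within the transcription factor gene Rfx1, and miR-721 within the homeobox gene Cux1. MiR-711 lay within the type VII collagen gene Col7a1, and miR-702 within Plod3, which encodes a collagen-modifying enzyme. Of these loci, all but miR-709 were recorded on the same strand as the gene. MiR-680 had 3 loci, none of them inside another gene, and the miR-710 locus was also outside any other gene. No coordinates are given, since the array was designed on another build.

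Detection divided the 42 miRs before any comparison of groups. Each miR was printed as 40 spots of 1 to 4 probes, and the scanner software called it detected or not and merged its spots into 1 background-subtracted signal. MiR-680, miR-690, miR-697, miR-705, miR-706, miR-709, miR-712-5p, miR-714, miR-720 and miR-721 were detected on every array. These were 23.8% of the 42, against 28.7% of all 1079 murine miRs. Detection on at least 1 array was 42.9% of the 42 and 39.1% of all. The share detected on every array was 34.6% among miRs numbered below miR-680 and 16.9% among those above miR-721. The nearest blocks of numbers lay at 17.2% for miR-650 to miR-679 and at 0 of 23 for miR-722 to miR-770. Per array, 10 to 14 of the 42 were detected in the Non-union group and 11 to 16 in the Union group, so the groups overlapped.

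**Figure D1:**
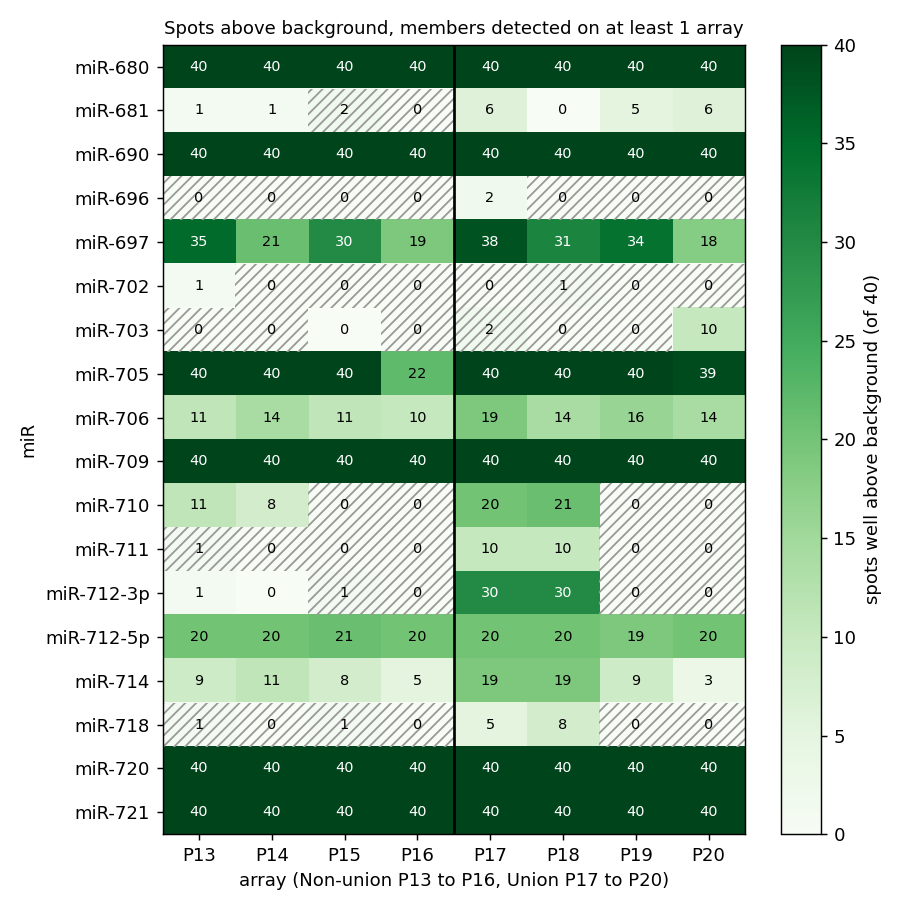
Number of spots well above background, of 40, for the 18 miRs detected on at least 1 array (rows) on each of the 8 arrays (columns; the black line separates the groups). Hatched cells were not called detected. MiR-680, miR-690, miR-709, miR-720 and miR-721 reached 40 of 40 on every array, while miR-711 and miR-718 were called detected on P17 and P18 and on no other array.

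How evenly the probes of a miR carried its signal differed. The 4 probes of miR-680 and of miR-721 each held 23.3% to 27.0% and 24.4% to 26.4% of the summed probe signal. For miR-706, in contrast, 1 of 4 probes held 88.3% of it, and 2 of its probes had no spot well above background on any array. Of the 4 probes of miR-712-5p, 2 held 58.1% and 39.3%, and of those of miR-714, 2 held 62.0% and 38.0%. For miR-709 and miR-720 the brighter of 2 probes held 84.8% and 83.4%. No spot of any of the 42 miRs was saturated.

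No miR of the set differed between the groups after adjustment for multiple testing. MiR-706 was 1.68-fold higher in Union and had the only unadjusted p under 0.05. MiR-680, miR-705, miR-721 and miR-709 also had higher means in Union, and miR-720 a higher mean in Non-union, but none of these passed the test. In all of them the arrays of the 2 groups overlapped. The values were taken to log2, quantile normalized over the 1079 murine miRs and tested with limma over the 310 miRs detected on every array. Each difference is Non-union minus Union with its standard error (SE). Merged signals are in the scanner's brightness units before normalization, and depend on the probe, so 1 miR's level is not set against another's.

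**Figure D2:**
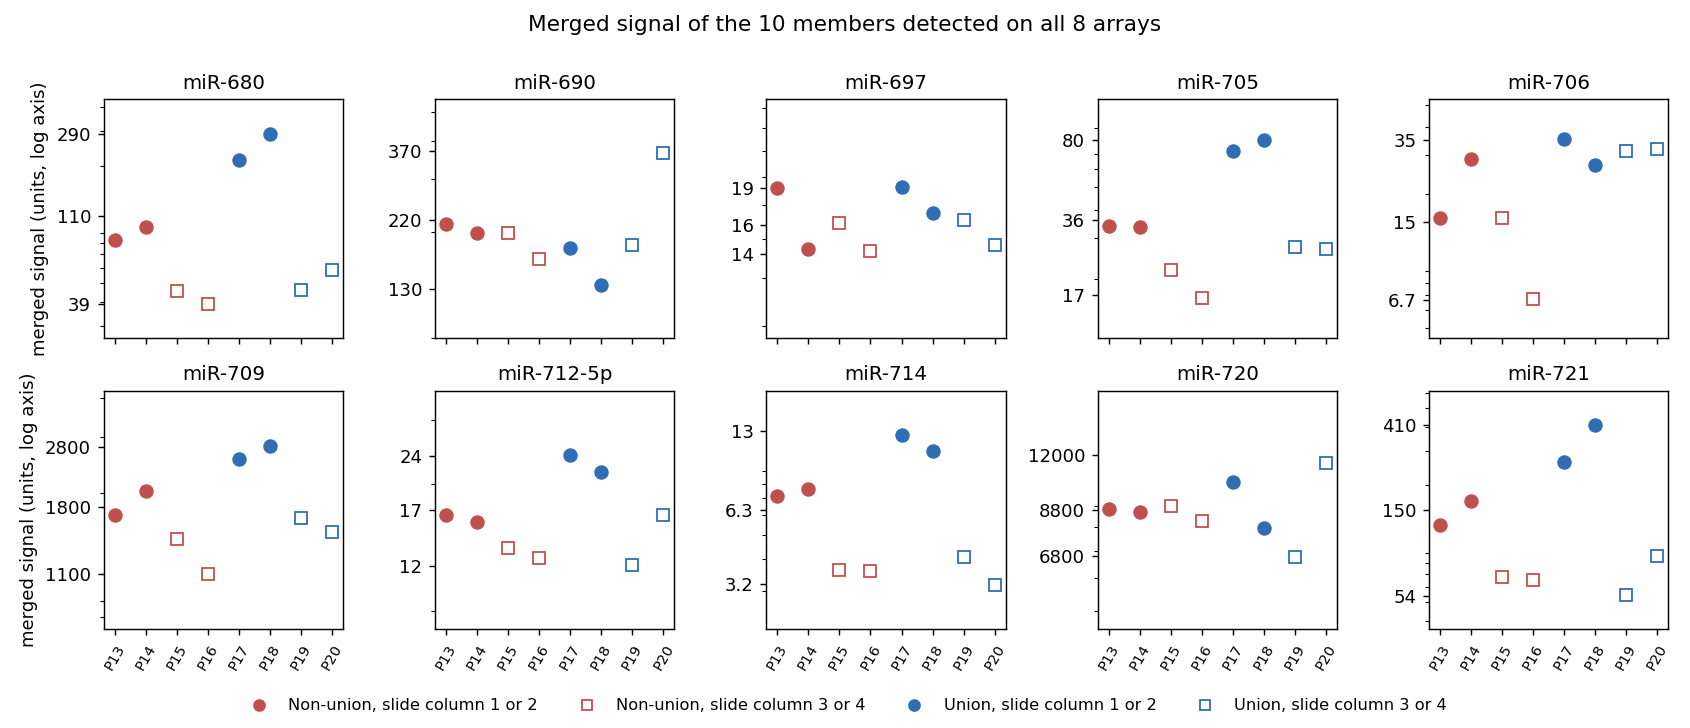
Merged signal (log axis, brightness units before normalization) of the 10 miRs detected on all arrays. Each point is 1 array, red for Non-union and blue for Union, filled for slide columns 1 and 2 and open for columns 3 and 4. MiR-680, miR-705, miR-709, miR-714 and miR-721 were higher on all 4 filled points than on all 4 open points, and on P17 and P18 they were highest.

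MiR-706 read 15.6, 28.7, 15.6 and 6.74 on P13 to P16, and 35.4, 26.9, 31.0 and 31.7 on P17 to P20. A single Non-union array, P14, lay inside the Union range, and P16 was the lowest of all 8. The normalized log2 level was 4.08 ± 0.54 (SD, n = 4) in Non-union and 4.83 ± 0.27 (SD, n = 4) in Union, a difference of -0.75 (SE 0.29; limma p = 0.0302, adjusted p = 0.313; exact permutation p = 0.0857, two-sided). The smallest two-sided p that 70 arrangements of 4 against 4 arrays allow is 0.0286. Within slide columns 1 and 2 the difference was -0.27, and within columns 3 and 4 it was -1.23. Leaving out any 1 of P13, P15, P16, P17, P19 and P20 took the unadjusted p above 0.05, with differences between -0.58 and -0.77. With normexp background correction, which added an offset of 50 to the spot signals before log2, the difference was -0.18, still with an unadjusted p under 0.05. This is 1 of 10 tested members with an unadjusted p under 0.05, against a background of 13.9% of the 310, and 1 of 10 called lower in Non-union, against 4.19%.

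MiR-680 read 82.7, 97.3, 45.5 and 39.0 on P13 to P16, and 213, 292, 46.1 and 58.6 on P17 to P20. P17 and P18 stood above every other array, while P19 and P20 lay within the Non-union range. The difference was -0.70 (SE 0.49; limma adjusted p = 0.387). Omitting single arrays gave values from -0.29 (without P18) to -1.07 (without P19, the only omission with an unadjusted p under 0.05).

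MiR-705, the inhibitor of osteogenic differentiation, read 33.9, 33.6, 21.8 and 16.6 in Non-union and 71.9, 80.1, 27.6 and 26.9 in Union. P17 and P18 were again the highest arrays, and P19 and P20 fell between the 2 pairs of Non-union arrays. The difference was -0.56 (SE 0.32; limma adjusted p = 0.378). Omitting single arrays gave values from -0.33 (without P18) to -0.75 (without P20). The unadjusted p was under 0.05 without P20 and without P19 (-0.74), and in no other omission. With normexp background correction the difference was -0.27.

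MiR-721 read 125, 166, 67.1 and 65.0 in Non-union and 263, 410, 54.4 and 86.5 in Union. The lowest and the highest of the 8 arrays were both Union arrays. The difference was -0.40 (SE 0.53; limma adjusted p = 0.631), and without P18 it was 0.045. Its seed family was tested in the same fit. The differences were 0.14 (SE 0.23) for miR-130a-3p, 0.00 (SE 0.31) for miR-130b-3p and 0.03 (SE 0.30) for miR-301a-3p, and none had an adjusted p under 0.05.

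MiR-709, reported to act in the nucleus on the primary transcript of miR-15a and miR-16-1, read 1697, 2025, 1421 and 1096 in Non-union. On P17 to P20 it read 2554, 2826, 1660 and 1497. P14 lay above P19 and P20, so the groups overlapped. The difference was -0.33 (SE 0.26; limma adjusted p = 0.410), and omitting single arrays gave values from -0.20 to -0.50.

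MiR-690, known as a cargo of vesicles from macrophages, read 214, 199, 199 and 164 in Non-union and 177, 134, 182 and 365 in Union. Only P20 stood above the Non-union range, and P18 alone stood below it. The difference was 0.19 (SE 0.35; limma adjusted p = 0.726), and it was -0.049 without normalization. P20 also had the highest mean of the markers of myeloid cells and leukocytes, taken over the 3 of 4 that were detected on all arrays. That mean normalized log2 level was 12.0 on P20 against 10.01 to 10.16 on the other Union arrays and 9.53 to 10.12 in Non-union. The remaining marker of that list was detected on no array. The part of this list in the miR-690 signal was not tested.

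MiR-697 varied least of the 10 in merged signal, with 18 to 38 of 40 spots well above background. It read 18.97, 14.3, 16.2 and 14.2 in Non-union and 19.05, 16.9, 16.4 and 14.6 in Union, so the highest array was 1.34 times the lowest. The difference was 0.15 (SE 0.19; limma adjusted p = 0.602), and it was -0.076 without normalization.

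The ribosomal spacer fragment miR-712-5p read 16.6, 15.8, 13.4 and 12.6 in Non-union and 24.1, 21.6, 12.1 and 16.5 in Union. P17 and P18 were above all other arrays and P19 below them. The difference was -0.06 (SE 0.21; limma adjusted p = 0.864). MiR-714 read 7.17, 7.64, 3.62 and 3.58 in Non-union and 12.6, 10.8, 4.09 and 3.15 in Union, with 3 to 19 of 40 spots well above background. Its difference was 0.26 (SE 0.49; limma adjusted p = 0.726), and it was -0.33 without normalization.

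The transfer RNA fragment miR-720 read 8854, 8718, 9033 and 8265 in Non-union and 10311, 7973, 6751 and 11503 in Union. In merged signal the Union arrays spread on both sides of the narrow Non-union range. After normalization the Non-union arrays were the more spread, at 13.4 ± 0.49 (SD, n = 4) against 12.9 ± 0.30 (SD, n = 4) in Union. The difference was 0.49 after normalization (SE 0.28; limma adjusted p = 0.378) and -0.037 without it. Scaling to the 75th percentile gave 0.19 (of detected miRs) and 0.20 (of all murine miRs). Omitting single arrays gave values from 0.27 (without P16) to 0.64 (without P14). The summed merged signal of the 42 miRs was 4.56% ± 0.53 (SD, n = 4) of all murine miR signal in Non-union and 4.20% ± 0.61 (SD, n = 4) in Union. MiR-720 alone gave 67.1% to 85.3% of that sum. Without it the shares were 0.835% ± 0.077 and 0.990% ± 0.229 (SD, n = 4 each), and the groups overlapped. These shares describe brightness on the array, not numbers of molecules.

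**Figure D3:**
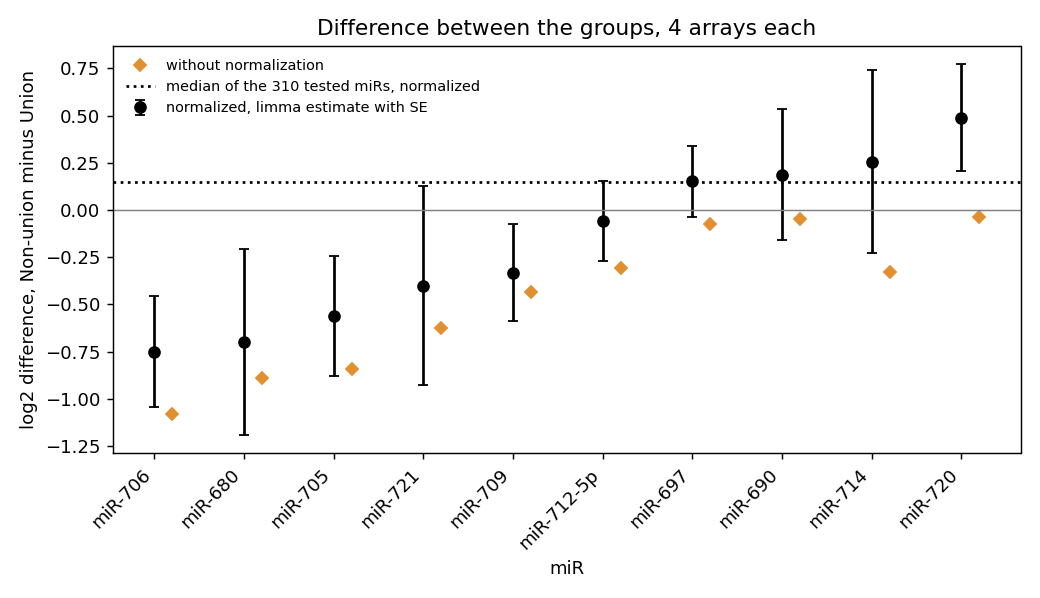
Log2 difference, Non-union minus Union, of the 10 miRs (4 arrays a group). Black points are normalized with the SE of the limma fit, orange diamonds are without normalization, and the dotted line is the median of all 310 tested miRs at 0.15. All 10 diamonds lie below 0, while 6 of the black points do.

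The scaling set the sign of 4 of the 10. After normalization 6 were lower and 4 higher in Non-union, with a median of -0.20 against 0.15 over the 310 miRs. Without normalization all 10 were lower, with a median of -0.38 against -0.10, so the median of all miRs moved by over 0.1 between the scalings. The 4 that changed sign were miR-690, miR-697, miR-714 and miR-720. On neither scale did the members' median lie above that of all miRs. A low median was not particular to the set. After normalization the median was 0.24 for the tested miRs numbered below miR-680 and -0.42 for those above miR-721. None of the 10 passed an adjusted p of 0.05, against 0.323% of the 310, and the smallest adjusted p among them was 0.313. None reached a 2-fold change, against 8.39%, and none had groups that did not overlap, against 3.87%.

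Several of these miRs also differed with the place of the array on the slide. All 8 arrays were on 1 slide. Per the file headers, the Non-union arrays filled slide row 1 and the Union arrays row 2, each in the order of their specimen numbers over columns 1 to 4. So row and group cannot be told apart, and neither can specimen order and column. In merged signal, miR-680, miR-705, miR-709, miR-714 and miR-721 were higher on all 4 arrays of columns 1 and 2 than on all 4 of columns 3 and 4. That was 5 of 10 members, against 16.8% of the 310. After normalization it was 3 of 10 (miR-680, miR-705 and miR-721), against 7.74%. In merged signal, the geometric mean of columns 1 and 2 in the Union group was 4.79 times that of columns 3 and 4 for miR-680, 2.78 times for miR-705 and 4.79 times for miR-721. In the Non-union group the ratios were 2.13, 1.77 and 2.18. The columns were split this way after the values were seen, so these numbers are a description and have no test.

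**Figure D4:**
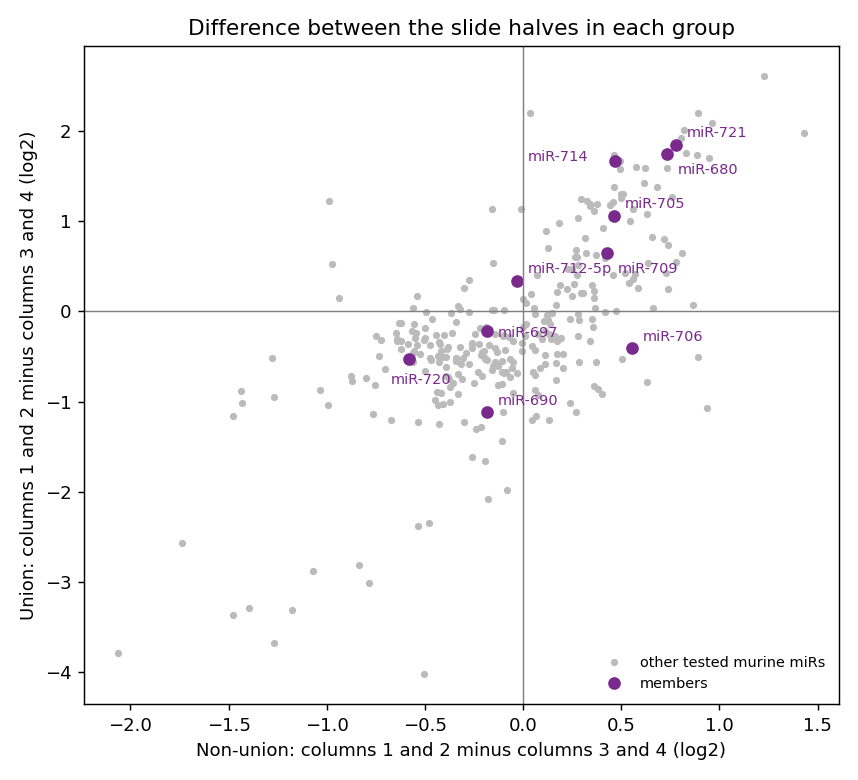
Normalized log2 difference between slide columns 1 and 2 and columns 3 and 4 in the Non-union group (x axis) and in the Union group (y axis). Purple points are the 10 miRs of the set and grey points the other tested miRs. MiR-721, miR-680, miR-714, miR-705 and miR-709 lie above 0 on both axes.

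Among the 10, 5 were higher in columns 1 and 2 in both groups after normalization (50%, against 28.4% of the 310), and 3 were lower in both (30%, against 48.7%). MiR-721 differed by 0.78 in Non-union and 1.85 in Union, and miR-680 by 0.73 and 1.74. The values were 0.47 and 1.67 for miR-714, 0.46 and 1.07 for miR-705, and 0.43 and 0.65 for miR-709. The miRs that share the miR-721 seed went the other way. MiR-130a-3p differed by -0.11 and -0.67, miR-130b-3p by -0.33 and -0.92, and miR-301a-3p by -0.05 and -0.90. The 3 members lower in both were miR-690 (-0.18 and -1.12), miR-697 (-0.18 and -0.22) and miR-720 (-0.58 and -0.52). Neither direction was particular to the set, since 88 of the 310 were higher in both groups and 151 lower. Some miRs numbered above miR-721 differed more than any member, such as miR-1897-5p (0.89 and 2.20) and miR-3091-5p (0.80 and 1.93). Others there were lower in both, such as miR-3069-3p (-0.14 and -0.41). They were named after their values were seen, and the share in that range was not counted.

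With slide column as a block, 3 of the 10 (miR-680, miR-705 and miR-706) had an unadjusted limma p under 0.05, against 25.2% of the 310. With columns 1 and 2 against 3 and 4 as the block there were 4, miR-720 being the fourth, against 30.6%. None of the 10 passed an adjusted p of 0.05 in that fit, where 4.19% of the 310 did, and the smallest adjusted p of a member was 0.0929, for miR-705. Within both pairs of columns the normalized groups did not overlap, in the same direction, for miR-705 and miR-720, against 28.7% of the 310. In merged signal this held for miR-680, miR-705 and miR-709, all lower in Non-union, against 23.9%. MiR-705 was lower in Non-union by -0.86 and -0.26, and miR-720 was higher by 0.46 and 0.52, although without normalization miR-720 lost its sign.

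MiR-680, miR-705, miR-710, miR-711 and miR-721 have a run of at least 4 G bases in the mature strand, shown in capitals. All 5 were highest on P17 and P18, as were miR-718, which has no such run, and miR-709, miR-712-3p, miR-712-5p and miR-714, for which no sequence was matched.
miR-680: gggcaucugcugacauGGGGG
miR-705: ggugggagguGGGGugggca
miR-710: ccaagucuuGGGGagaguugag
miR-711: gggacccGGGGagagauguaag
miR-721: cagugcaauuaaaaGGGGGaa

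The letters GGGG were looked for on the mature strand only, and 7.79% of the 873 murine miRs with a sequence held them. A count over all 42 members cannot be made, because only 76.2% had a sequence. Of the 32 members that had one, 5 (15.6%) held GGGG. Among the 310 tested miRs 83.2% had a sequence, but among the 10 tested members only 6 did. Of the tested miRs with a sequence 24 held GGGG, 3 of them members. Their median difference between columns 1 and 2 and columns 3 and 4 was 0.46 in Non-union and 1.20 in Union, and 19 of 24 were higher in both groups. For the 234 without GGGG the medians were -0.14 and -0.36, and 49 were higher in both. Between the groups, the median Non-union minus Union difference was -0.48 with GGGG and 0.21 without. The run was chosen after the values were seen, and the comparison is a description.

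Other measures moved with the columns too. The summed signal of the arrays was 258346 to 279341 in columns 1 and 2 and 183589 to 234221 in columns 3 and 4 in Non-union, and 295597 to 360063 against 227941 to 266590 in Union. Detected miRs numbered 358 to 366 against 324 to 354 in Non-union and 381 to 391 against 361 in Union. The 4 cartilage markers, miR-140 and miR-455 arms that mark chondrocytes and were all detected on every array, averaged lower in columns 1 and 2, by -1.41 in Non-union and -0.89 in Union on the normalized log2 scale. Their mean ranged from 6.47 to 8.69 in Non-union and from 5.67 to 6.93 in Union. The red blood cell markers, 3 of 3 detected on every array, averaged higher in columns 1 and 2, by 0.65 in Non-union and 1.36 in Union, and ranged from 7.04 to 8.61 and from 7.21 to 9.19. Of 6 skeletal muscle markers none was absent throughout, and the 4 detected on every array were averaged. Their mean differed by 0.67 in Non-union and 0.12 in Union, and ranged from 12.3 to 13.6 and from 13.1 to 13.5. In Union they went opposite ways. MiR-1a-3p (0.80), miR-133b-3p (0.41) and miR-133a-3p (0.07) were higher in columns 1 and 2, and miR-206-3p (-0.79) was lower. The mean of the 3 myeloid and leukocyte markers detected on every array differed by -0.085 in Non-union and -1.01 in Union. Negative control spots differed by group, and so by slide row, and not by column. Their net signal was 51.2 to 55.0 in Non-union and 46.9 to 47.9 in Union, without overlap, and within each group the 2 pairs of columns overlapped. The part of these measures in the members' values was not tested.

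Of the 8 miRs detected on some arrays, 2 were detected on exactly the 4 arrays of columns 1 and 2, against 4 of all 112 such murine miRs. On P17 and P18 alone, also in those columns, 2 of the 8 were detected, against 17 of the 112. Within each group the arrays of columns 1 and 2 detected more miRs in total. MiR-681 was detected on both sides of the slide, and miR-703 only in columns 3 and 4. MiR-710 read 6.46 and 6.58 on P13 and P14 and 23.7 and 31.2 on P17 and P18, and was not detected on the other 4 arrays. The other product of the miR-712 hairpin, miR-712-3p, read 2.45 and 2.47 on P13 and P14, close to the lowest detected signals of those arrays (2.19 and 2.27), and 26.5 and 33.4 on P17 and P18. In both miRs the arrays with signal were those of columns 1 and 2, in both groups. Of all 1079 murine miRs 4 had this detection pattern, the others being miR-3058-3p and miR-30c-1-3p, which were named after their values were seen. None had the opposite one.

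MiR-711 read 5.29 and 9.05 on P17 and P18, with 10 spots well above background on each, and was not detected elsewhere. MiR-718, whose locus overlaps Irak1, a gene of innate immune signalling, read 3.45 and 3.95 on the same arrays. These were 2 of 17 murine miRs detected on P17 and P18 alone. Both were seen on 2 of 4 Union and on 0 of 4 Non-union arrays, but the Union log2 mean over all 4 arrays, with undetected arrays at the 0.1 that the software gives, did not exceed the level at which detection began, so no fold is given.

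The remaining 4 were dim. MiR-681 was detected on 2 of 4 Non-union arrays at 2.50 and 2.96 and on 4 of 4 Union arrays at 2.66 to 3.83. MiR-703 read 2.87 on P15 and 6.04 on P20, with 10 spots well above background on P20 and 0 on P15. MiR-696, known as a regulator of mitochondrial metabolism in muscle, was called detected on P17 at 2.61, and miR-702 on P13 at 2.24. Across the 8 arrays the lowest merged signal of a detected miR was 2.16 to 2.39, so these last values stood at the limit of detection.

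The 24 miRs detected on no array were miR-682, miR-683, miR-684, miR-686, miR-687, miR-688, miR-691, miR-692, miR-693-3p, miR-693-5p, miR-694, miR-695, miR-698, miR-700-3p, miR-700-5p, miR-701-3p, miR-701-5p, miR-704, miR-707, miR-708-3p, miR-708-5p, miR-713, miR-717 and miR-719. For these a difference was not detectable on these arrays.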

How the data were processed

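RNA (100 ng a specimen) was hybridised to 1-colour Agilent mouse miRNA arrays. The authors deposited the scanner output of Agilent Feature Extraction 10.10.1.1, with a background-subtracted intensity per spot, a merged intensity per miR (0.1 where undetected) and a detection call, and a log2 value table that served as an alternative. Columns of values without a sample numbered 0. Merged intensities were taken to log2 and quantile normalized over 1079 murine miRs. The 310 detected on all 8 arrays were tested (limma 3.58.1 in R 4.3.3, Benjamini-Hochberg adjustment, with Python 3.11.15 for tables), after the script was tested on simulated data. The study's threshold, an unadjusted p of 0.05, and a 2-fold change were counted separately. Arrays were grouped by their labels. The number of arrays, 4 a group, limits the precision, and p-values measure the spread between single specimens. Every member detected on at least 1 array was named with its values. Other miRs were named only as markers, for a shared seed or to compare a slide column pattern. Sequences were matched by name to RefSeq, or, for 33 non-members, to the name with the letter a added. Members, marker lists and tests were chosen with earlier results of these data known. Alternatives were other normalizations, spot summaries, background corrections, filters, the methods' t-test and leaving out each array. Slide position as a block was added after seeing the data.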

Additional observations from a re-analysis of the deposited data

Results flagged for a closer look

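In a group of 4 arrays, 1 array stood far from the other 3 in 2 of 22 sets of values examined, and chance gives about 1 in 20. MiR-712-5p had a normalized log2 level of 3.54 on Union array P19, while the other 3 Union arrays lay between 4.17 and 4.20. The 42 miRs together gave 5.11% of the murine miR signal on Union array P20, against 3.82% to 4.02% on the other 3, and miR-720 gave 84.5% of that sum on P20.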

How the results depend on the processing

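No alternative, including each left-out array, brought a member past an adjusted p of 0.05. The count of members with an unadjusted p under 0.05 was 1 and ranged from 0 (without P13, P15, P16 or P17) to 2 (without P19), with 4 and 3 under the 2 slide blocks, which were chosen after seeing the data. The count with a 2-fold change was 0, but 1 without normalization (miR-706), 3 with no filter on dim miRs, and 0 to 1 with an array left out (1 without P14 or without P19). Leaving out miR-720 took the share of signal to 0.835% in Non-union and 0.990% in Union. Without normalization the sign turned for miR-690 (-0.049), miR-697 (-0.076), miR-714 (-0.33) and miR-720 (-0.037). Quantile normalization over detected miRs alone turned miR-697 (-0.028) and miR-714 (-0.34). MiR-714 also turned with the 75th percentile of detected (-0.10) or of all miRs (-0.086), with averaged spots (-0.18) and with normexp (-0.011). With 1 array left out, miR-690 ranged from -0.038 to 0.51, miR-712-5p from -0.23 to 0.0084, miR-714 from -0.087 to 0.59 and miR-721 from -0.81 to 0.045. The sign turned without P18 for miR-690, miR-712-5p and miR-721 and without P20 for miR-714. Normexp, with its offset of 50 on the spot signals, also took miR-706 from -0.75 to -0.18 and miR-705 from -0.56 to -0.27. The causes were not tested. Signals near 2 units are at the limit of detection, so the dimmest members have no usable difference.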
